A study of Saccharomyces cerevisiae with 6 samples.

Results

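The transcripts of 45 genes of the nuclear pore complex and of the karyopherins, the carriers that take cargo through it, were followed in the evolved wine yeast P5-EM and in its parent P5. They are 30 nucleoporin genes and 15 karyopherin genes out of 5449 Saccharomyces cerevisiae genes measured. A gene was taken as a member by its symbol: any NUP or KAP followed by a number, or one of a fixed set of further symbols such as NIC96, MLP1, SRP1 and CRM1. Each member has 1 probe set on the array. P5-EM is a single isolate obtained after a mixed culture of wine yeasts was treated with the mutagen EMS (ethyl methanesulfonate) and transferred serially for 200 generations in synthetic grape must (SM1) at 12 °C. P5 is the commercial wine strain Lalvin ICV GRE, from which P5-EM descends, untreated and not evolved. RNA came from 3 independent cultures of P5-EM and 3 of P5, all fermenting SM1 at 12 °C and collected in exponential growth. A single time was sampled, so a difference between the strains and a difference in the stage of fermentation cannot be told apart. Expression is given as log2 of the normalised hybridisation signal of an Affymetrix Yeast Genome 2.0 array, so a difference of 1 is 2-fold. A positive log2 fold change means a higher level in P5-EM.

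The nuclear pore complex is the main route for large molecules between nucleus and cytoplasm. A membrane ring anchors it in the nuclear envelope, a Y complex and an inner ring build its scaffold, and nucleoporins with phenylalanine-glycine (FG) repeats fill the channel. Filaments extend into the cytoplasm and a basket extends into the nucleus. Karyopherins bind their cargo and the FG repeats in turn. The small GTPase Ran gives them direction: its GTP-bound form, kept high in the nucleus, releases cargo from importins and loads it onto exportins.

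All 45 members lay above background on all 6 arrays, background being the level under which 95% of the S. pombe probe sets on the same array lay. The lowest member value was 4.12, for MLP1 on the first P5-EM array, where background was 2.59. That array, P5-EM replicate 1, stood apart from the rest. Across probe sets it correlated with P5-EM replicates 2 and 3 at r = 0.9673 and 0.9532, while those 2 correlated at 0.9903 and the P5 arrays with each other at 0.9918 to 0.9963. The members show it as well, with a median SD of 0.19 in P5-EM and 0.11 in P5, and of 0.07 over P5-EM replicates 2 and 3 alone. Values without this array are therefore given beside the results they move most, and the plot of fold changes by place in the pore shows them for every member.

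No member passed the limma test, for which an adjusted p of at most 0.05 was required (Benjamini-Hochberg over 5498 probe sets). The counts were 0 of 45 lower and 0 of 45 higher in P5-EM, where 7.78% of all probe sets tested were lower, 6.09% higher and 13.9% passed in either direction. The lowest adjusted p of a member was 0.0774, for KAP104, and the highest 0.965, for NUP60. At an unadjusted p under 0.05 there were 7 members, 2 lower in P5-EM (NUP157 and NUP2) and 5 higher (KAP104, GLE2, NUP145, KAP122 and GLE1), and 34.4% of all probe sets. With a difference of at least 2-fold required as well, 0 members and 3.93% of all probe sets passed. Only MLP1 reached a 2-fold difference with no test applied, as 7.09% of all probe sets did.

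The sizes of the differences were small. The log2 fold changes of the members ran from -1.02 (MLP1) to 0.51 (LOS1), against -3.52 to 4.17 over all probe sets, with a median of 0.04 against -0.04. In absolute size the median was 0.19 for the members and 0.29 for all probe sets. There were 21 members with a negative difference and 24 with a positive one. The 95% confidence interval lay wholly within 2-fold for 40 of 45 members (88.9%), and for 73.4% of all probe sets. Wider intervals belonged to NUP57, MLP1, MLP2, CSE1 and LOS1, so a 2-fold difference is not excluded by these data for those 5 genes. A p that misses the threshold does not show equal levels in the strains.

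**Figure D1:**
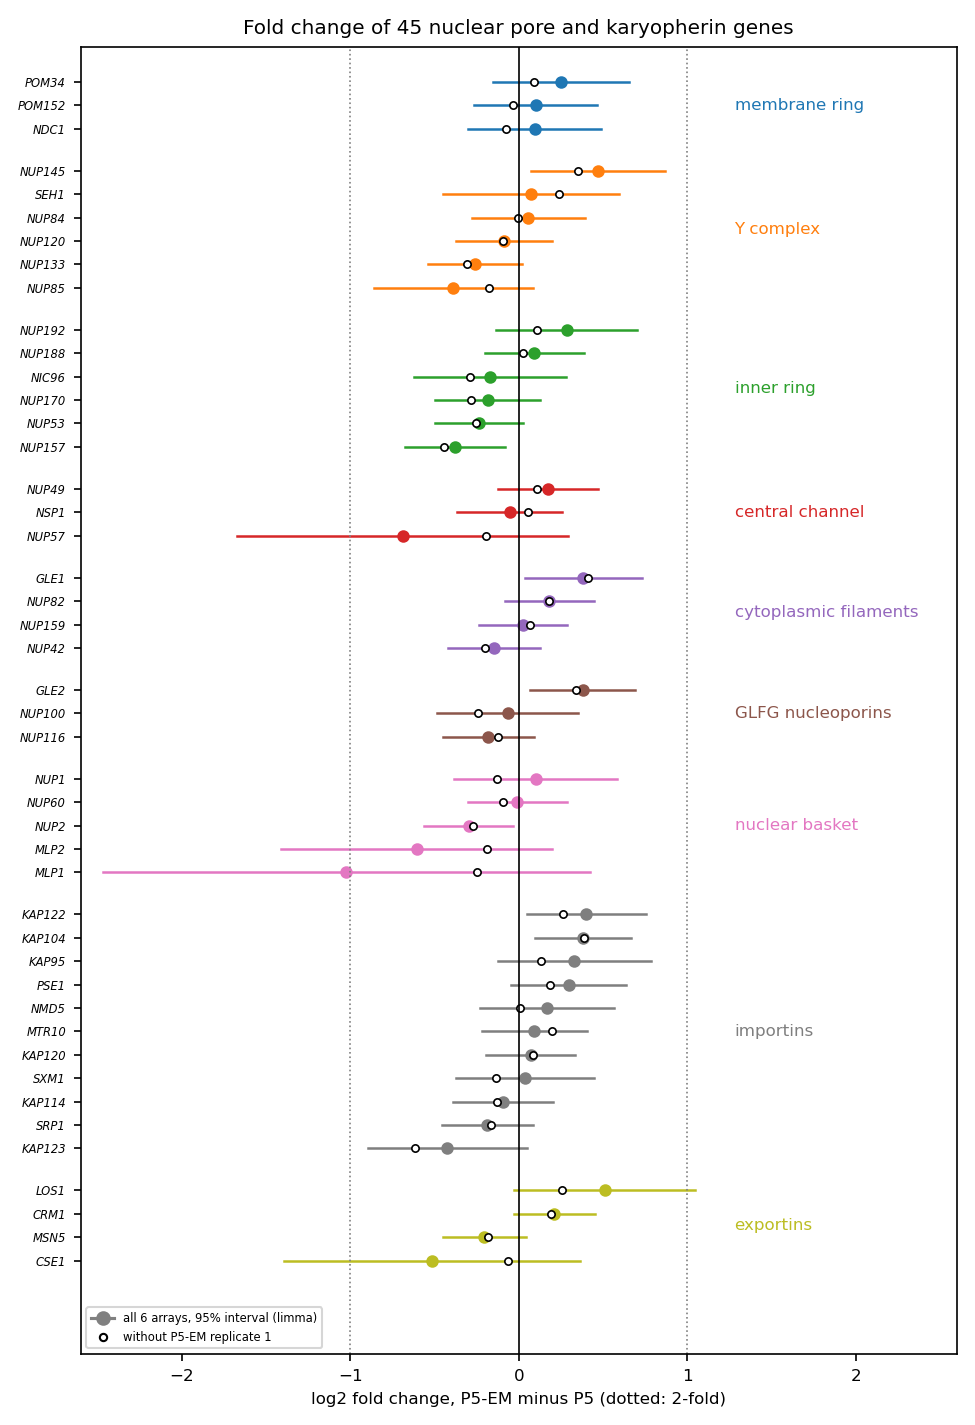
Log2 fold change of each of the 45 members, P5-EM minus P5, by place in the pore or kind of carrier. Filled points and bars are the estimate over all 6 arrays and its 95% confidence interval (limma), open points the estimate without P5-EM replicate 1, and dotted lines mark 2-fold. Most points lie near 0, the widest bars are those of MLP1, NUP57, MLP2 and CSE1, and the open points of these genes lie closer to 0 than the filled ones.

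All 3 P5-EM arrays lay above all 3 P5 arrays for 9 members (NUP145, NUP82, GLE1, GLE2, PSE1, KAP104, KAP122, CRM1 and LOS1), as for 21.1% of all probe sets. For 10 members all P5-EM arrays lay below all P5 arrays (NUP85, NUP133, NUP157, NUP53, NUP116, MLP1, MLP2, NUP2, SRP1 and MSN5), as for 24.6% of all probe sets. The remaining 26 members overlapped. Among nucleoporins 8 of 30 lay below and 4 above, with a median log2 fold change of -0.03, and among karyopherins 2 of 15 lay below and 5 above, with a median of 0.09. In RNA from a whole culture, fewer cells with a transcript and less of it per cell cannot be told apart.

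The membrane ring consists of POM34, POM152 and NDC1, which span the pore membrane, and Ndc1 also serves the insertion of spindle pole bodies into the envelope. POM34 read 8.77, 8.27 and 8.29 in P5-EM, against 8.30, 8.24 and 8.05 in P5, a log2 fold change of 0.25 ± 0.17 (SE) with an adjusted p of 0.326. NDC1 read 9.34, 8.78 and 8.88 in P5-EM, against 8.87, 8.98 and 8.87 in P5 (0.09 ± 0.17, adjusted p = 0.709). In both genes, and in POM152, P5-EM replicate 1 was the highest of the 6 arrays, while P5-EM replicates 2 and 3 lay within the P5 values or just below them. Without that array the estimates were 0.09 for POM34, -0.03 for POM152 and -0.07 for NDC1.

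The Y complex coats the curved membrane at the pore. Its 6 members under the symbol rule had a median log2 fold change of -0.02 and ranged widely. The rule leaves out SEC13, which had -0.47 (adjusted p = 0.304 by limma), and -0.14 without P5-EM replicate 1. NUP145, whose protein is cleaved into a scaffold part of the Y complex and a part with GLFG repeats, read 7.38, 6.94 and 7.10 in P5-EM, against 6.88, 6.69 and 6.45 in P5. Every P5-EM array was above every P5 array, with means of 7.14 ± 0.22 in P5-EM and 6.67 ± 0.21 in P5 (SD, n = 3 each). The log2 fold change was 0.47 ± 0.17 (SE), the largest positive value among nucleoporins, and its adjusted p was 0.104 by limma.

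NUP85 and NUP133 were on the other side. NUP85 read 5.76, 6.44 and 6.37 in P5-EM, against 6.68, 6.47 and 6.58 in P5, with a log2 fold change of -0.39 ± 0.20 (SE) that was -0.17 without P5-EM replicate 1. NUP133 read 6.66, 6.44 and 6.59 in P5-EM, against 6.92, 6.74 and 6.79 in P5, a difference of -0.26 ± 0.12 (SE) with an adjusted p of 0.169. The P5-EM arrays of NUP133 were evenly low, and its estimate without replicate 1 was -0.31. NUP120, NUP84 and SEH1 overlapped between the strains, with log2 fold changes of -0.09, 0.06 and 0.07. SEH1, which the pore shares with a vacuolar signalling complex, ranged within a strain from 7.44 to 8.06 in P5-EM and from 7.49 to 8.06 in P5.

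The inner ring joins the scaffold to the membrane and to the channel. NUP157 read 9.04, 8.80 and 8.89 in P5-EM, against 9.15, 9.39 and 9.32 in P5. All P5-EM arrays lay below all P5 arrays, and the means were 8.91 ± 0.12 in P5-EM and 9.29 ± 0.13 in P5 (SD, n = 3 each). The log2 fold change of -0.38 ± 0.12 (SE) had a 95% interval from -0.67 to -0.08 and an adjusted p of 0.0887 in limma. Without P5-EM replicate 1 it was -0.44 with an adjusted p of 0.029, which passes. NUP170, the paralog of NUP157, read 7.54, 7.26 and 7.23 in P5-EM, against 7.56, 7.43 and 7.59 in P5 (-0.19 ± 0.13, adjusted p = 0.342). There the first P5-EM array fell within the range of P5 and replicates 2 and 3 lay below it.

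NUP53 encodes a linker protein of the same ring. It read 6.95, 6.82 and 7.00 in P5-EM, against 7.10, 7.21 and 7.16 in P5, with no overlap and a log2 fold change of -0.24 ± 0.11 (adjusted p = 0.175). Its paralog ASM4, which the symbol rule does not include, had -0.18 with an adjusted p of 0.329. NUP192, a large structural subunit, had the opposite sign, with 7.49, 6.99 and 6.95 in P5-EM, against 6.99, 6.72 and 6.85 in P5 (0.28 ± 0.18, adjusted p = 0.288). Its arrays overlapped, since P5-EM replicates 2 and 3 were below the highest P5 array, and without replicate 1 the estimate was 0.11. NIC96 and NUP188 overlapped as well, at -0.17 and 0.09. Over the 6 inner ring genes the median was -0.18, with 4 negative values and 2 positive ones, and it was -0.27 without replicate 1.

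NSP1, NUP49 and NUP57 encode the FG nucleoporins of the channel itself, which form 1 complex held by Nic96. NUP57 read 4.38, 5.84 and 5.89 in P5-EM, against 6.37, 5.96 and 5.84 in P5. A single array set its mean: P5-EM replicate 1 was 1.46 log2 units below every other array, and P5-EM replicates 2 and 3 lay at the low end of the P5 values. The log2 fold change was accordingly -0.69 ± 0.41 (SE) over all arrays and -0.19 without that array, with adjusted p values of 0.274 and 0.406. NSP1 read 9.67, 9.97 and 10.02 in P5-EM, against 9.95, 9.99 and 9.87 in P5 (-0.05 ± 0.13, adjusted p = 0.793). NUP49 read 8.27, 8.07 and 8.10 in P5-EM, against 7.90, 8.13 and 7.89 in P5 (0.17 ± 0.12, adjusted p = 0.357). Neither separated the strains, and the members of this complex did not share a sign.

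On the cytoplasmic face, Nup82 anchors Nup159, and Gle1 and Nup42 sit with them where the helicase Dbp5 strips proteins from exported mRNA. GLE1, whose protein stimulates Dbp5, read 8.08, 8.22 and 8.10 in P5-EM, against 7.48, 7.89 and 7.87 in P5. The P5-EM arrays were close together and above all P5 arrays, with means of 8.13 ± 0.07 in P5-EM and 7.75 ± 0.23 in P5 (SD, n = 3 each). The log2 fold change was 0.38 ± 0.15 (SE) with a 95% interval from 0.04 to 0.73 and an adjusted p of 0.12 by limma, and it was 0.41 without P5-EM replicate 1. NUP82 did not overlap either, with 5.52, 5.53 and 5.51 in P5-EM, against 5.41, 5.41 and 5.20 in P5, a smaller difference of 0.18 ± 0.11 (SE). NUP42 read 7.99, 7.91 and 7.75 in P5-EM, against 8.07, 8.06 and 7.97 in P5 (-0.15 ± 0.11, adjusted p = 0.385). NUP159 had a log2 fold change of 0.02 and overlapped.

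NUP116 and NUP100 are paralogs that encode GLFG-repeat nucleoporins, and Gle2 is held at the pore by Nup116. GLE2 read 8.61, 8.56 and 8.42 in P5-EM, against 8.29, 8.20 and 7.96 in P5. Its P5-EM arrays were all above its P5 arrays, with means of 8.53 ± 0.10 in P5-EM and 8.15 ± 0.17 in P5 (SD, n = 3 each) and a log2 fold change of 0.38 ± 0.13 (SE), at an adjusted p of 0.0968 (limma). NUP116 was below P5 on all arrays, with 8.93, 9.18 and 9.03 in P5-EM, against 9.20, 9.21 and 9.28 in P5 (-0.18 ± 0.11, adjusted p = 0.297). NUP100 overlapped, with 7.74, 7.11 and 7.31 in P5-EM, against 7.36, 7.48 and 7.51 in P5 (-0.07 ± 0.18, adjusted p = 0.811). Its first P5-EM array was the highest of the 6 and the other two P5-EM arrays the lowest, and without replicate 1 the estimate was -0.24.

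The nuclear basket had a median of -0.30 over its 5 genes, the lowest of the role groups over all 6 arrays but not without P5-EM replicate 1, where it was -0.19 and that of the inner ring -0.27. Mlp1 and Mlp2, paralogous coiled-coil proteins that build the basket's fibres, were each far lower on P5-EM replicate 1. MLP1 read 4.12, 6.35 and 6.52 in P5-EM, against 6.63, 6.58 and 6.84 in P5. MLP2 read 5.96, 7.14 and 7.28 in P5-EM, against 7.41, 7.39 and 7.40 in P5. Every P5-EM array was below every P5 array in both genes, but replicate 1 lay a further 2.23 and 1.18 log2 units below the next lowest array of MLP1 and MLP2. The log2 fold changes were -1.02 ± 0.61 (SE) for MLP1 and -0.61 ± 0.34 (SE) for MLP2 with adjusted p values of 0.269 and 0.242, and without replicate 1 they were -0.25 and -0.19, at 0.175 and 0.22.

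NUP2 encodes a mobile basket nucleoporin that takes part in recycling importin alpha. It read 6.85, 6.82 and 7.03 in P5-EM, against 7.24, 7.16 and 7.19 in P5, without overlap. Its means were 6.90 ± 0.11 in P5-EM and 7.20 ± 0.04 in P5 (SD, n = 3 each), and its log2 fold change of -0.30 ± 0.11 (SE) had an adjusted p of 0.114 by limma. Without P5-EM replicate 1 it was -0.27. NUP1, an FG nucleoporin of the basket, read 9.12, 8.47 and 8.39 in P5-EM, against 8.54, 8.55 and 8.58 in P5. Here replicate 1 was above P5 and the other P5-EM arrays below it, so that the estimate was 0.10 with that array and -0.13 without it. NUP60, which binds the inner membrane, had -0.01.

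**Figure D2:**
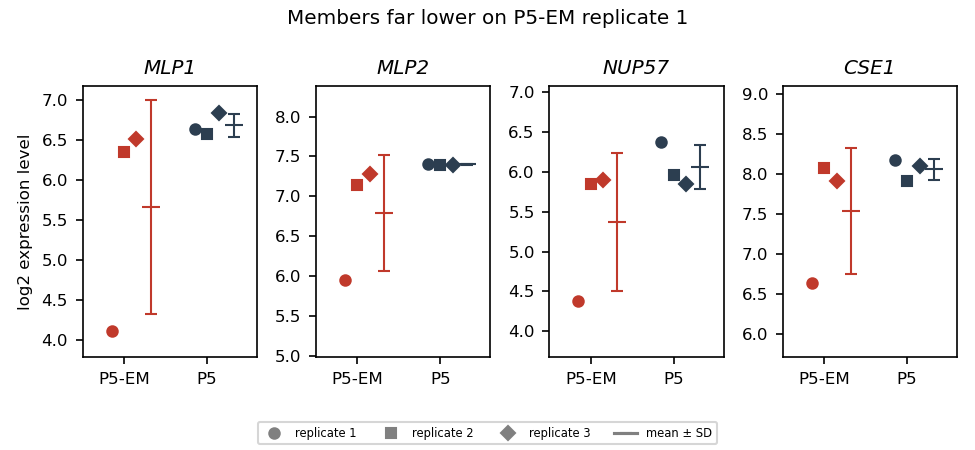
Log2 expression level of MLP1, MLP2, NUP57 and CSE1 on each array of P5-EM (left) and P5 (right), with the mean and SD beside the points (n = 3 each) and a vertical axis that does not start at 0. In each gene P5-EM replicate 1 (circle) lies more than 1 log2 unit below all other arrays, at 4.12 for MLP1, while P5-EM replicates 2 and 3 lie near the P5 arrays.

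P5-EM replicate 1 was at least 1 log2 unit below all other arrays in 4 members (8.89%) and in 6.17% of all probe sets. It was above all others by as much in 0 members and in 0.473% of all probe sets. By rank it went mainly the other way in this group of genes. It was the highest of the 6 arrays in 18 members (40.0%, against 26.1% of all probe sets) and the lowest in 11 (24.4%, against 39.1%). The part of RNA quality, amplification or hybridisation in this array's values was not tested.

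Importins carry proteins into the nucleus. Importin alpha (SRP1) recognises the classical import signal and binds importin beta (KAP95), which docks at the pore. SRP1 read 8.52, 8.53 and 8.64 in P5-EM, against 8.88, 8.68 and 8.70 in P5, without overlap and with a log2 fold change of -0.19 ± 0.11 (adjusted p = 0.278). KAP95 read 9.99, 9.39 and 9.43 in P5-EM, against 9.41, 9.27 and 9.13 in P5 (0.33 ± 0.19, adjusted p = 0.256). Its first P5-EM array was the highest, and the estimate without it was 0.13. The partners thus had opposite signs, and neither passed.

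KAP104, whose protein imports the mRNA-binding proteins Nab2 and Hrp1, read 8.78, 8.75 and 8.85 in P5-EM, against 8.58, 8.33 and 8.33 in P5. All P5-EM arrays were above all P5 arrays, replicate 1 among them, with means of 8.79 ± 0.05 in P5-EM and 8.41 ± 0.15 in P5 (SD, n = 3 each). Its log2 fold change of 0.38 ± 0.12 (SE) had a 95% interval from 0.09 to 0.66 and an adjusted p of 0.0774 by limma, and was 0.39 at an adjusted p of 0.052 without replicate 1. KAP122, for the importer of the transcription factor TFIIA, read 7.07, 6.60 and 6.72 in P5-EM, against 6.35, 6.45 and 6.38 in P5. It did not overlap either, and its log2 fold change of 0.40 ± 0.15 (adjusted p = 0.112) was 0.26 without replicate 1.

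KAP123 and PSE1 encode importers of ribosomal proteins. KAP123 read 9.84, 9.07 and 9.48 in P5-EM, against 9.94, 9.89 and 9.83 in P5, so replicate 1 alone fell within the P5 values. The means were 9.46 ± 0.39 in P5-EM and 9.89 ± 0.05 in P5 (SD, n = 3 each), the log2 fold change was -0.42 ± 0.20 (SE) and the adjusted p was 0.183 in limma. Without replicate 1 the log2 fold change was -0.61 with an adjusted p of 0.0171, and without replicate 2, the lowest P5-EM array, it was -0.23 with an adjusted p of 0.375. PSE1 read 8.88, 8.58 and 8.53 in P5-EM, against 8.52, 8.32 and 8.26 in P5 (0.30 ± 0.14, adjusted p = 0.19), higher on every P5-EM array, and had 0.19 without replicate 1. The genes of the other five importins, KAP114, SXM1, KAP120, MTR10 and NMD5, overlapped between the strains, with log2 fold changes from -0.09 (KAP114) to 0.17 (NMD5). Without replicate 1 that of NMD5 was 0.0045. Over all 11 importin genes the median was 0.09.

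**Figure D3:**
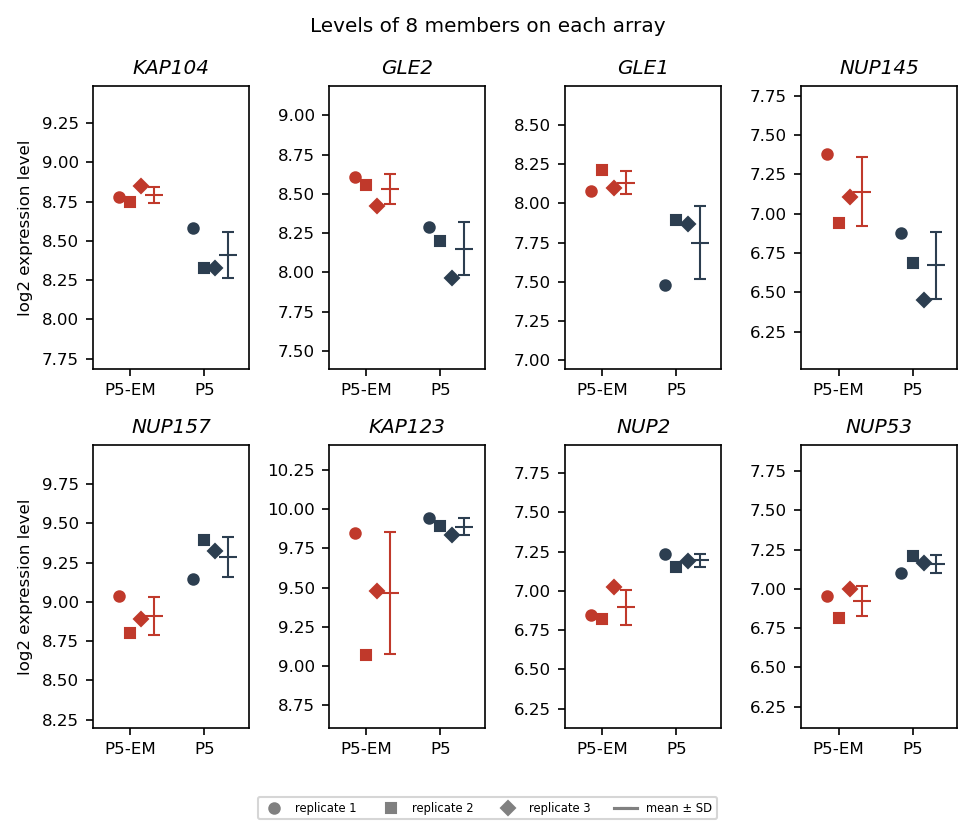
Log2 expression level of 8 members on each array of P5-EM (left) and P5 (right), by replicate, with the mean and SD (n = 3 each), on axes that do not start at 0 and all span the same number of log2 units. In the upper row (KAP104, GLE2, GLE1, NUP145) all P5-EM arrays lie above all P5 arrays. In the lower row they lie below in NUP157, NUP2 and NUP53, whereas P5-EM replicate 1 of KAP123, at 9.84, lies among the P5 arrays.

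Exportins carry cargo out. CRM1, the main exportin of proteins with a leucine-rich signal and of ribosomal subunits, read 9.32, 9.25 and 9.28 in P5-EM, against 9.09, 9.10 and 9.02 in P5. The arrays of each strain were tightly grouped and apart, with means of 9.28 ± 0.04 in P5-EM and 9.07 ± 0.04 in P5 (SD, n = 3 each), but the difference was small, 0.21 ± 0.10 (SE), with an adjusted p of 0.189 by limma. MSN5, for an exportin of phosphorylated proteins, read 8.51, 8.60 and 8.54 in P5-EM, against 8.70, 8.75 and 8.82 in P5. It was lower on every P5-EM array, by 0.20 on average (log2 fold change -0.20 ± 0.10, adjusted p = 0.21).

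LOS1, which encodes the tRNA exportin, read 7.89, 7.21 and 7.03 in P5-EM, against 6.95, 6.81 and 6.83 in P5. Its log2 fold change of 0.51 ± 0.23 (SE) was the largest positive value of the 45 members, with an adjusted p of 0.162. P5-EM replicate 1 was 0.68 above every other array, and the estimate without it was 0.26 (limma, adjusted p = 0.135). CSE1, for the exportin that returns Srp1 to the cytoplasm, read 6.64, 8.08 and 7.91 in P5-EM, against 8.17, 7.91 and 8.10 in P5. As in NUP57, replicate 1 was far below and replicates 2 and 3 were among the P5 arrays, and the log2 fold change was -0.52 ± 0.37 (SE) with it and -0.06 without it.

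With P5-EM replicate 1 left out, 2 members passed as lower in P5-EM, NUP157 and KAP123, and 0 as higher. Over all probe sets 14.4% passed as lower and 12.2% as higher in that fit. The member log2 fold changes then ran from -0.61 (KAP123) to 0.41 (GLE1), with a median of -0.06. The count of members lower in P5-EM thus depends on that array. Leaving out any other array gave 0 in both directions. Over all probe sets 1.8% and 18.3% passed without P5-EM replicates 2 and 3, and 2.55% without P5 replicate 1. Without P5 replicate 2 or 3 no probe set passed, so the 0 counts of those fits are not particular to the members.

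Genes of processes tied to the pore were followed in 4 further lists. The Ran cycle had 8 genes: 1 was lower in P5-EM and 0 higher, against 7.78% and 6.09% of all probe sets. Their median log2 fold change was -0.23, and -0.08 without P5-EM replicate 1. The gene that passed was YRB2, for a cofactor of export by Crm1, with 6.13, 7.10 and 7.31 in P5-EM, against 8.13, 7.92 and 7.97 in P5 (-1.16 ± 0.30, adjusted p = 0.0481). All P5-EM arrays were below P5, replicate 1 the furthest, and without it the difference was -0.80. NTF2, the import factor of Ran itself, was picked out after its values were seen, with 8.55, 8.31 and 8.01 in P5-EM, against 7.87, 7.48 and 7.43 in P5 (0.70 ± 0.19, adjusted p = 0.0543). It lay above P5 on every array and passed without P5-EM replicate 1 (0.57, adjusted p = 0.0379) and without P5-EM replicate 3 (0.84, adjusted p = 0.0319). In those fits 26.6% and 18.3% of all probe sets passed. NTF2 did not pass without P5-EM replicate 2 or when any single P5 array was left out. Nor did it pass by the methods' t-test or with the replicate number as a block. GSP1 and GSP2, the paralogs for Ran, had 0.23 and -0.24 and did not pass.

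Among 21 genes of mRNA export 1 was lower in P5-EM and 0 higher, where 7.78% and 6.09% of all probe sets were. The median was -0.15, and -0.01 without P5-EM replicate 1. This was DBP5, the helicase gene named above with GLE1, with 6.54, 7.04 and 7.14 in P5-EM, against 7.90, 7.61 and 7.77 in P5 (-0.85 ± 0.18, adjusted p = 0.033). It lay below P5 on all arrays, whereas GLE1 lay above P5 on all arrays without passing. Without P5-EM replicate 1, DBP5 was at -0.67 and 3 genes of the list passed as lower, where 14.4% of all probe sets did. Of 11 genes of pore membrane and assembly 0 passed, where 13.9% of all probe sets did. The median was -0.10, and 0.0002 without P5-EM replicate 1. PER33, a membrane protein gene also chosen after its values were seen, had the lowest adjusted p, 0.0679, with a log2 fold change of 0.65. Without P5-EM replicate 1 it was the 1 gene of this list that passed, at 0.44 with an adjusted p of 0.025. In that fit 12.2% of all probe sets passed as higher. PER33 also passed without P5-EM replicate 3 (0.0341), but not without P5-EM replicate 2 or when any single P5 array was left out.

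The last list holds factors of the late assembly, export and cytoplasmic maturation of ribosomal subunits. Like the other lists it was chosen with earlier results of these data known, so the shares beside it are not an independent test. Of 13 genes 9 fell (7.78% of all probe sets did) and 0 rose (6.09%), 7 of the falls being at least 2-fold (3.93% of all probe sets passed at that fold in either direction), and the median log2 fold change was -1.01. All P5-EM arrays lay below all P5 arrays in all 13, as for 24.6% of all probe sets. NMD3, the adaptor that links the large subunit to Crm1, read 8.01, 7.92 and 8.13 in P5-EM, against 9.15, 9.02 and 8.96 in P5 (-1.02 ± 0.12, adjusted p = 0.00961). RIO2 and LTV1, which act on the small subunit, had log2 fold changes of -1.01 and -1.25 (adjusted p = 0.0106 and 0.0167). LSG1, for the GTPase that releases Nmd3 in the cytoplasm, had -0.95 (adjusted p = 0.0108). CRM1, which carries these subunits, had 0.21, and KAP123 and PSE1 had -0.42 and 0.30, none of them passing. Without P5-EM replicate 1 the list had 12 genes lower (14.4% of all probe sets were) and a median of -0.96.

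The calls in these lists, like those over all probe sets, rest on few arrays. Of the 11 genes lower in P5-EM over the 4 lists, 2 passed without P5-EM replicate 2 and 4 without P5 replicate 1. Over all 5498 probe sets the calls lower in P5-EM fell as well, from 428 to 56 and 85 in those fits. The count of listed genes was 0 on leaving out either P5 replicate 2 or P5 replicate 3. No probe set of the whole array then passed. NMD3, RIO2, LSG1 and LTV1 lost their calls without either of the last 2 arrays, as did YRB2 and DBP5, which also lost theirs without P5-EM replicate 2 or P5 replicate 1. LTV1 and LSG1 lost theirs without P5-EM replicate 2 and LTV1 without P5 replicate 1 as well. The methods' t-test did not call YRB2 (adjusted p = 0.145), DBP5 (0.0972) or LTV1 (0.0719). The log2 fold changes of these genes kept their sign in every such fit.

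**Figure D4:**
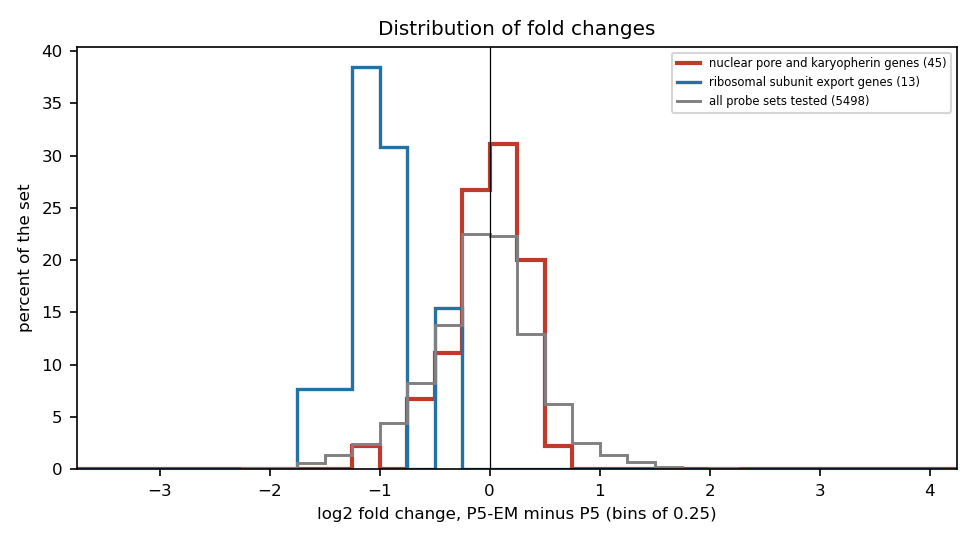
Share, in percent, of the 45 members, of 13 listed ribosomal subunit genes and of all 5498 probe sets tested in each bin of log2 fold change (P5-EM minus P5, bins 0.25 wide). The 13 genes, labelled ribosomal subunit export, are factors of late assembly, export and cytoplasmic maturation. The members are centred near 0 (median 0.04) and are narrower than all probe sets, while the ribosomal subunit genes lie to the left (median -1.01). Members and list were chosen with earlier results of these data known.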

How the data were processed

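Levels were taken from the deposited log2 values. The authors made these from intensity (CEL) files generated with GCOS, by RMA (background correction, normalisation and probe summary) in Partek. From each sample 25 ng of RNA had been amplified over 17 cycles. The number of arrays, 3 a strain, limits the precision. Of 10928 probe sets, 5498 were tested, those annotated with exactly 1 gene of S. cerevisiae. For 12 of them the reference gene list gave a different symbol, and that of the array annotation was kept. The background was taken from 1746 S. pombe probe sets. The strains were compared with the lmFit and eBayes functions of limma 3.58.1 (R 4.3.3) without covariates, and p values were adjusted by Benjamini-Hochberg over all 5498; the procedure was tested on simulated data. Members and lists were chosen with earlier results of these data known. In each role group the member with the lowest adjusted p and the largest positive and negative differences were named, with paralogs, and up to 4 passing genes of each further list; other members were described after their values were seen. Alternatives were the methods' t-test, an intensity trend, array weights, quantile normalisation, median centring, filters on dim probe sets at the 95th and 99th percentile of background, a replicate block and each array left out. The files name no genome build, and sequence features were not used here.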

Additional observations from a re-analysis of the deposited data

How the results depend on the processing

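The counts of members lower and higher in P5-EM were 0 and 0 with the methods' t-test, an intensity trend, quantile normalisation, median centring and both filters on dim probe sets. Of all probe sets, 2.96% passed with the t-test, 13.7% with the trend, 18.0% with quantile normalisation and 14.8% with median centring. With each filter 14.2% of the probe sets kept passed. Array weights, which gave P5-EM replicate 1 the lowest weight, moved them to 6 lower and 5 higher (39.3% of all probe sets then passed), and REML weights, tried after the data were seen and not converged, to 10 lower and 9 higher (58.6%). With an array left out, members lower ran between 0 and 2 and members higher stayed at 0. The member median of 0.04 became -0.0361 with array weights and -0.036 with REML weights, and ran between -0.0623 and 0.0595 with an array left out. Over all probe sets, 428 lower and 335 higher became 102 and 61 with the methods' t-test, 125 and 65 when it was adjusted over probe sets at least 2-fold apart only, 1117 and 1043 with array weights, 1639 and 1583 with REML weights, 494 and 494 with quantile normalisation, and between 0 and 793 lower and 0 and 669 higher with an array left out. The 11 listed transport genes lower in P5-EM became 4, 6, 21 and 23 in the first 4 of these, and the 0 higher became 4 and 7 with the weights, 1 with quantile normalisation, and 2 without P5-EM replicate 1 or 3.

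Signs turned in 12 members, none of which passed over all 6 arrays with equal weights. With array weights and REML weights NDC1 was at -0.0936 and -0.1288, POM152 at -0.0361 and -0.0783, NUP1 at -0.0818 and -0.0905, SXM1 at -0.0588 and -0.036, and NSP1 at 0.0286 and 0.0308. With REML weights alone NMD5 was at -0.0154 and CSE1 at 0.0432. NUP60 was at 0.0333 after quantile normalisation. With an array left out the ranges were -0.074 to 0.2023 for NDC1, -0.0315 to 0.2087 for POM152, -0.0169 to 0.1651 for NUP84, -0.0708 to 0.255 for SEH1, -0.1202 to 0.0542 for NSP1, -0.0175 to 0.0643 for NUP159, -0.2432 to 0.0704 for NUP100, -0.0941 to 0.0576 for NUP60, -0.1288 to 0.2347 for NUP1 and -0.1334 to 0.1767 for SXM1. The cause was not tested.

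With the replicate number as a block, 0 members were lower and 0 higher, 125 and 83 of all probe sets passed, and 7 listed transport genes were lower; YRB2 and DBP5 lost their calls under the block, with adjusted p values of 0.0846 and 0.0782. Same-numbered arrays deviated from their strain means with correlations of -0.032, -0.279 and -0.016, and unlike-numbered arrays with correlations from -0.105 to 0.238. The values show no pairing by number. With 3 arrays a strain they cannot decide whether same-numbered samples were handled together. A choice between probe sets of a member gave no value, as each has 1.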
